A study of Mus musculus with 6 samples.

Results

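To ask how the chromatin of a starting fibroblast differs from that of the pluripotent cell it becomes, accessibility in mouse embryonic fibroblasts (MEFs) at day 0 was set against accessibility in induced pluripotent stem cells (iPSCs). The comparison took all 218231 regions on chromosomes 1 to 19, out of 223596 regions in the table. The 5357 X-linked and 8 Y-linked regions were left out. Regions were sorted by their level in the MEF and iPSC libraries into shared, fibroblast-only and iPSC-only regions. The reprogramming intermediates of days 8, 9, 10 and 12, which took no part in the sorting, were then placed between both ends.

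ATAC-seq uses a transposase that inserts sequencing adapters where DNA is free of nucleosomes, so a region with many reads is an open one. Promoters of housekeeping genes are open in most cell types, whereas distal enhancers tend to be open in the cell types that use them. During reprogramming Oct4, Sox2 and Klf4 bind chromatin that is closed in fibroblasts as well as open fibroblast enhancers, and the fibroblast programme is silenced while the pluripotency network is switched on. Regions in the table are named by a row number and a chromosome only. No gene, coordinate or sequence is therefore given, and the labelled cell types could not be checked against marker genes.

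Each of the 6 groups was 1 library from female hybrid cells of a Mus musculus mother with an X-linked GFP reporter and a Castaneus father. The MEF day 0 cells had received lentiviruses with the Oct4, Sox2, Klf4 and c-Myc cassette (tetO-FUW-OSKM) and the transactivator (FUW-M2rtTA) and were sorted for a silent GFP-bearing X chromosome, before doxycycline was given. The intermediates had been kept in doxycycline and ascorbic acid and were sorted for SSEA1, a surface marker gained during reprogramming, so that each holds a selected fraction of its culture. The iPSCs came from picked colonies that were grown further without doxycycline and ascorbic acid, in mouse ESC medium with LIF. Each library title, the one for the iPSCs too, marks GFP-negative cells. The number of colonies behind the iPSC library is not given in the sources used here. Without a second library in any group, no difference had a replicate check and no p-value was computed.

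The MEF day 0 library held 26711099 reads in autosomal regions, the iPSC library 21256394 and the intermediates 23902957 to 32284532. Values in the table are log2(normalised count + 1), and a normalised count is the read number divided by a DESeq2 size factor. The size factor of MEF day 0 was 0.498 and that of iPSC 0.798, so that 1 read stood for 2.01 normalised counts in MEF day 0 and 1.25 in iPSC. Reads were more concentrated in MEF day 0, where 5.92% of the autosomal regions held 50% of the reads, than in iPSC, where 7.81% did, or in the intermediates, where 8.56% to 9.74% did. Size factors of this kind follow the typical region. If instead all libraries are given equal autosomal totals, iPSC values rise against MEF values by 1.01 on the log2 scale. Results are given under both scalings where they differ. The share of reads on the X chromosome, at 1.51% in MEF day 0 and 3.65% in iPSC, was higher in iPSC.

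The relation between the levels in MEFs and iPSCs depended on which regions were taken. Across all 218231 autosomal regions Pearson's r between the log2 values of both libraries was 0.432 (Spearman's rho 0.378). It was 0.118 (rho 0.0775) across the 140603 regions open in at least one of them, a selection that itself lowers r, and 0.585 (rho 0.516) across the 58527 regions open in both. Regions of 1 library pair are not replicates, and these values are descriptions only. A region was called open from 50 normalised counts, which is 24.9 reads in MEF day 0 and 39.9 in iPSC.

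Of the autosomal regions 28897 (13.2%) were shared, that is, open in both libraries and less than 2-fold apart on the log2(normalised count + 1) scale. Fibroblast-only regions, open in MEF day 0, below the cutoff in iPSC and at least 4-fold lower there, numbered 32849 (15.1%). iPSC-only regions, defined the opposite way, numbered 27236 (12.5%). These percentages are at the same time the shares called over all autosomal regions tested. By fold and level alone, with no cutoff on the lower library, 18.7% of all regions were at least 4-fold lower in iPSC and 13.4% at least 4-fold higher, or 11.6% and 19.7% with equal totals. Regions open in both but at least 2-fold apart were 22663 higher in MEFs (10.4%) and 6967 higher in iPSCs (3.19%), an order that turned with equal totals, at 7985 against 8784, and with quantile normalisation, at 8181 against 12435. A further 9780 and 12211 regions were open only in MEF day 0 or only in iPSC but differed by less than 4-fold. The remaining 77628 regions (35.6%) were below the cutoff in both libraries.

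**Figure D1:**
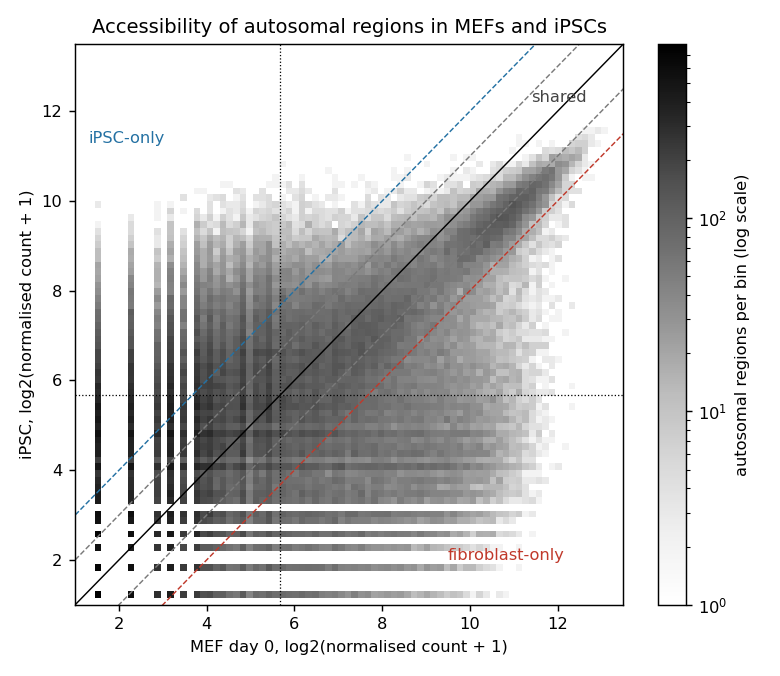
Each autosomal region by its log2(normalised count + 1) in MEF day 0 (x axis) and in iPSC (y axis); the grey scale gives the number of regions per bin on a log scale, dotted lines the cutoff of 50 normalised counts, the solid line equality, grey dashes a 2-fold and coloured dashes a 4-fold difference. The densest ridge of strong regions runs below the line of equality, beside a wide field of 32849 fibroblast-only regions at the lower right and 27236 iPSC-only regions at the upper left.

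The median fibroblast-only region had 117 reads in MEF day 0 and 11 in iPSC, and the median iPSC-only region 96 reads in iPSC and 6 in MEF day 0. The median log2 difference from MEF day 0 to iPSC was -4.03 in the fibroblast-only and 3.25 in the iPSC-only class. The same reads chose the regions, so their intervals are a description of precision only. The 95% exact interval of the fold lay above 2-fold in all 32849 fibroblast-only regions, but in 79.9% of them with equal totals, and in 98.4% of the iPSC-only regions (100% with equal totals). These intervals cover counting error in 1 library pair and not the variation between cultures. Just inside the 4-fold threshold, at a log2 difference of 2.0 to 2.2, 1615 fibroblast-only regions had a median of 102 normalised counts in MEF day 0 and 22.6 in iPSC. The 1508 regions just outside it (1.8 to 2.0) had 98.4 and 25.1. On the iPSC side 2347 regions just inside had 89.0 in iPSC and 20.1 in MEF day 0, and 2111 just outside had 86.5 and 22.1.

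Which of both cell types had more regions of its own depended on the scaling. With equal autosomal totals 21888 regions (10.0%) were fibroblast-only and 40663 (18.6%) iPSC-only, the opposite order from the size factors. Shared regions were nearly as many, at 29617 (13.6%), but 14939 of them were shared under both scalings, which was 51.7% of the one list and 50.4% of the other. All 21888 fibroblast-only regions under equal totals were also fibroblast-only under the size factors, where they made up 66.6% of the class. All 27236 iPSC-only regions under the size factors stayed iPSC-only under equal totals, where they made up 67.0%. This nesting follows from the construction, since equal totals shift all regions by nearly the same log2 difference, and is no sign of stability.

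The classes were spread unevenly over levels. Among regions whose higher library had 50 to 100 normalised counts, 27.1% were iPSC-only and 15.5% fibroblast-only. The order turned with the level. At 200 to 400 normalised counts 18.8% were iPSC-only and 28.9% fibroblast-only, and at 400 to 800 the shares were 8.44% and 33.7%. Among the 20289 regions of 800 or more only 227 (1.12%) were iPSC-only, against 4655 (22.9%) fibroblast-only. With equal totals the iPSC-only share fell with the level as well, from 41.8% at 50 to 100 to 3.64% at 800 or more. The fibroblast-only share was 11.7% at 50 to 100, 24.6% at 200 to 400 and 10.9% at 800 or more, where it still exceeded the iPSC-only share. From 400 normalised counts, regions of 1 cell type were therefore mostly those of MEFs under both scalings, and weak regions of 1 cell type mostly those of iPSCs. The latter did not hold with quantile normalisation, where 13.9% of the weakest bin were fibroblast-only and 14.1% iPSC-only. At 800 or more the shares were then 8.92% and 3.02%.

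How far the strongest regions were shared depended on the scaling. At 800 or more normalised counts in the higher library 20.8% of the regions were shared and 52.8% were open in both but higher in MEFs, with a median log2 difference of -1.60 from MEF day 0 to iPSC. With equal totals 61.2% of the regions at this level were shared and 16.1% higher in MEFs, and the median log2 difference was -0.27. In the lowest bin, 50 to 100, the median difference was 0.62 under the size factors and 1.45 under equal totals. The medians fell from weak to strong regions under both scalings, apart from a small return in the top bin under the size factors, where -1.60 followed on -1.87. With quantile normalisation there was no such fall. The medians were then 0.15, 0.22, 0.27, 0.15 and 0.03 from the weakest to the strongest bin.

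**Figure D2:**
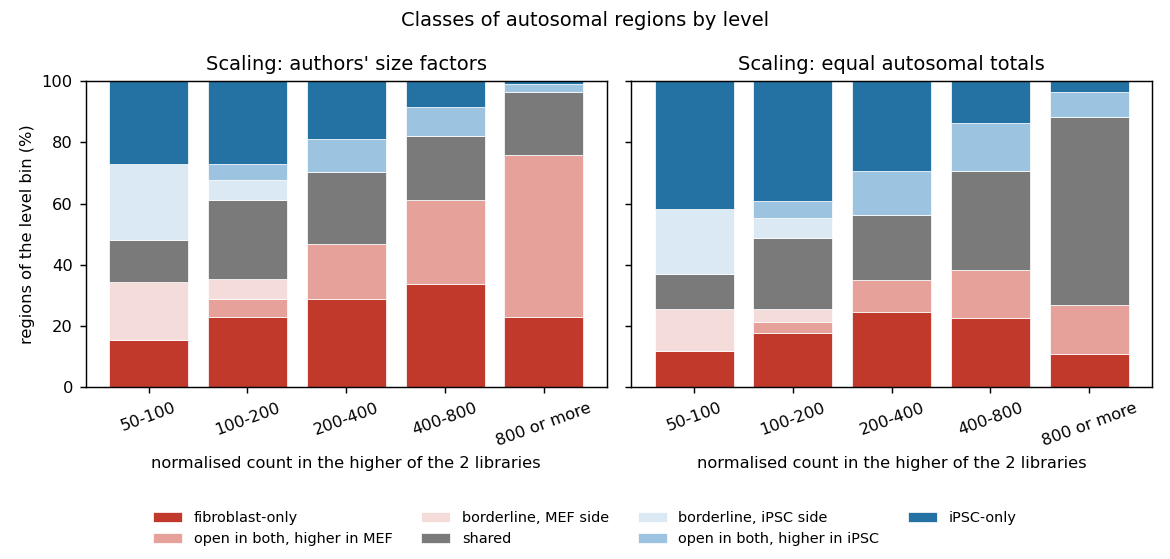
Share of the regions in each class (y axis, percent) for 5 bins of the normalised count in the higher of the MEF day 0 and iPSC libraries (x axis), under the authors' size factors (left) and equal autosomal totals (right). The iPSC-only share shrinks with the level in both panels, to 1.12% and 3.64%, while the shared part of the strongest bin is 20.8% on the left and 61.2% on the right.

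The strongest shared regions were open in every library. By mean log2 value the first was the region in row 161885 on chromosome 5, with 2623 reads in MEF day 0, 3792, 3815, 4726 and 4004 in the intermediates of days 8, 9, 10 and 12, and 3087 in iPSC. Its log2 difference from MEF day 0 to iPSC was -0.45 under the size factors but 0.56 with equal totals, 0.84 with quantile normalisation and 1.01 with size factors from strong regions, so that its direction turned with the scaling. Row 156052, also on chromosome 5, had 2924, 3136, 3426, 3553, 2404 and 2389 reads in the same order, with a log2 difference of -0.97 under the size factors and 0.04, 0.32 and 0.48 under the other scalings. Row 79101 on chromosome 15 had 1584, 4166, 4887, 4582, 4932 and 5028 reads and a log2 difference of 0.99, which was 2.00 with equal totals, where it was no longer shared but higher in iPSC. The direction of a difference within shared regions is therefore not called here.

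The strongest fibroblast-only regions lost nearly all reads. In row 102969 on chromosome 18 there were 2618 reads in MEF day 0, 114, 209, 254 and 152 in the intermediates of days 8, 9, 10 and 12, and 32 in iPSC, a 131-fold difference in normalised counts (92.6 to 192). Row 74486 on chromosome 15 had 2449, 480, 357, 338, 123 and 34 reads, a 115-fold difference (82.4 to 167). Row 205249 on chromosome 8 had 2435, 76, 76, 118, 90 and 17 reads, a 229.5-fold difference (143 to 395). In all of them most of the reads were gone by day 8, and each intermediate library still held more reads than the iPSC library. The 3 largest losses by log2 difference ended at 1 or 2 reads in iPSC. They were in row 129605 on chromosome 3, with 1202 MEF, 100 day 8 and 1 iPSC read (1926-fold, 345 to 76139), in row 186004 on chromosome 7, with 1425, 76 and 2 reads (1142-fold, 315 to 9437), and in row 90158 on chromosome 17, with 912, 102 and 1 read (1461-fold, 262 to 57784). A value of 1 read in the table can stand for 0 or 1.

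The strongest iPSC-only regions were weaker than these and had mostly opened by day 8. In row 181461 on chromosome 7 there were 7 reads in MEF day 0, 888, 1078, 873 and 1016 in the intermediates of days 8, 9, 10 and 12, and 1422 in iPSC, a 127-fold difference (61.4 to 316). Row 165212 on chromosome 5 had 6, 572, 891, 756, 917 and 1386 reads (144-fold, 66.1 to 394), and the region in row 70442 on chromosome 14 had 8, 785, 737, 695, 823 and 1324 reads (103-fold, 52.3 to 240). The 3 largest gains started from 1 read in MEF day 0 and did not share 1 course. Row 56671 on chromosome 13 had 1167 day 8 and 816 iPSC reads, and had thus reached its iPSC level by then. Row 42785 on chromosome 12 had 104, 76, 122 and 259 reads in the intermediates of days 8, 9, 10 and 12 and 805 in iPSC. Row 3282 on chromosome 1 had 229, 354, 293, 427 and 747 reads in the same order. Their folds of 509 (91.1 to 20138), 502 (89.9 to 19867) and 466 (83.4 to 18437) rest on that 1 read.

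To follow the classes through reprogramming, the share of each library's autosomal reads that fell in a fixed class was taken, which amounts to equal autosomal totals for the reads, while the class itself was set under either scaling. Fibroblast-only regions held 25.4% of the reads in MEF day 0, 8.63%, 10.4%, 9.80% and 7.38% in the intermediates of days 8, 9, 10 and 12, and 2.13% in iPSC. Counting error was small at this depth, with 95% Wilson intervals of 25.36% to 25.39% in MEF day 0 and 8.62% to 8.64% at day 8. These intervals do not cover variation between cultures, so with 1 library per day the order of days is a description only. The largest step was the one before day 8. It was also the longest between dated libraries and included the change to SSEA1-sorted cells in doxycycline. The share at days 9 and 10 was again above that at day 8. iPSC-only regions held 0.746% in MEF day 0, 8.76%, 8.56%, 8.15% and 11.0% in the intermediates of days 8, 9, 10 and 12, and 17.1% in iPSC. Their share fell slightly from day 8 to day 10 and rose again at day 12 and in iPSC. Shared regions held 20.8% in MEF day 0, 23.5%, 23.2%, 24.8% and 28.3% at days 8, 9, 10 and 12, and 32.6% in iPSC.

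Expressed as a part of the whole way from MEF day 0 to iPSC, the read share of fibroblast-only regions had gone 72.0%, 64.4%, 67.0% and 77.4% of the way at days 8, 9, 10 and 12. That of iPSC-only regions had gone 49.1%, 47.9%, 45.4% and 62.9%. By this measure fibroblast-only regions had gone further than iPSC-only regions at each of the 4 days. The order was the same with the classes set by equal totals, at 78.9%, 72.2%, 73.8% and 81.5% for fibroblast-only regions against 55.0%, 53.4%, 50.8% and 66.6% for iPSC-only regions. The shared class was not stable in this respect. Set by equal totals, its read share was 47.4% in MEF day 0, 38.0%, 37.1%, 41.0% and 43.6% in the intermediates of days 8, 9, 10 and 12, and 45.5% in iPSC, a dip in the intermediates in place of a rise.

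**Figure D3:**
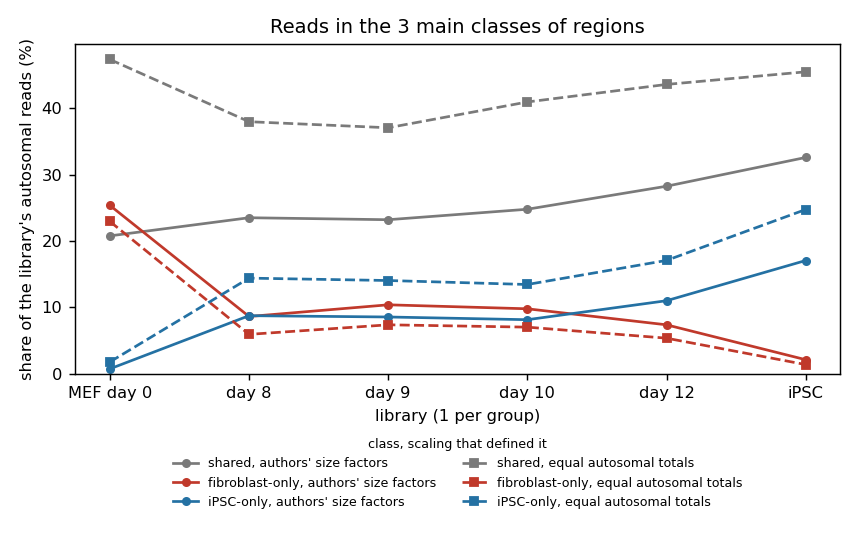
Share of each library's autosomal reads (y axis, percent) in fibroblast-only, iPSC-only and shared regions over the 6 libraries (x axis), with the classes set under the authors' size factors (solid) or under equal autosomal totals (dashed); each point is 1 library. Fibroblast-only reads drop from 25.4% to 8.63% between MEF day 0 and day 8, and iPSC-only reads rise from 0.746% to 8.76% and stay near that level until day 10.

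Ranks within a library, which do not change with its scaling, were taken for the regions that were in their class under both scalings. By the median rank fibroblast-only regions had gone further on their way than iPSC-only regions at days 8, 9 and 10, but iPSC-only regions had gone further at day 12. The rank was given as a percentile of the 218231 autosomal regions, with 100 for the region with most reads. The median fibroblast-only region was at percentile 84.3 in MEF day 0 (interquartile range 76.9 to 90.2), at 40.8, 48.6, 49.2 and 42.9 in the intermediates of days 8, 9, 10 and 12, and at 23.3 in iPSC. Of these 21888 regions, 80.1% were among the top 25% of regions in MEF day 0 and 15.3% at day 8. The median iPSC-only region was at percentile 24.3 in MEF day 0 and at 39.9, 38.8 and 44.7 in the intermediates of days 8, 9 and 10. It was at 63.0 at day 12 and at 76.0 in iPSC. The spread among iPSC-only regions was widest in the early intermediates, with an interquartile range of 16.1 to 68.1 at day 8 against 46.7 to 77.8 at day 12. At day 8, 19.2% of the 27236 regions were among the top 25%, whereas 35.7% were still among the lowest 25%. At day 12 the lowest 25% held 4.35% of them.

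To describe single regions, the position of an intermediate was its log2 value on the way from MEF day 0 (0) to iPSC (1), and a region was called iPSC-like from a position of 0.75 and MEF-like up to 0.25. Of the 32849 fibroblast-only regions 13797 (42.0%), 11400 (34.7%), 11817 (36.0%) and 14254 (43.4%) were iPSC-like on days 8, 9, 10 and 12. Over all autosomal regions, whatever their difference between both ends, 47.1%, 45.4%, 44.9% and 51.0% met this rule at the same days. The fibroblast-only shares were thus not above the background. That background includes regions with little difference between both ends, where the position is poorly determined. It therefore cannot show whether a class was early or late. The median position was 0.68, 0.62, 0.63 and 0.70, and the interquartile range at day 8 was 0.42 to 0.90. In absolute terms, 34.6%, 39.8%, 38.7% and 29.6% of the fibroblast-only regions were still open at the 4 days, where 46.5%, 45.0%, 43.6% and 43.8% of all autosomal regions were open.

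Of the 27236 iPSC-only regions 7264 (26.7%), 6743 (24.8%), 6374 (23.4%) and 10921 (40.1%) were iPSC-like on these days, all below the background given above. The median position was 0.43, 0.41, 0.45 and 0.70. MEF-like were 33.3% at day 8 and 3.06% at day 12. The share that was open went from 37.3% at day 8, 35.8% at day 9 and 36.9% at day 10 to 60.9% at day 12. Some regions went beyond the iPSC level, with a position over 1.25 in 2077 regions (7.63%) at day 8 and in 563 (2.07%) at day 12. Among fibroblast-only regions 5.81% and 3.84% did at these days. For MEF-like calls on single days and for positions over 1.25 the share over all autosomal regions was not taken. These values are descriptions only.

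The order of both classes in these calls was not the same under equal totals, which raise the intermediates against MEF day 0. Fibroblast-only regions were then iPSC-like in 35.6%, 23.4%, 25.4% and 25.5% of cases at the 4 days, against 32.9%, 33.9%, 32.8% and 68.1% of iPSC-only regions. The background was 47.1%, 45.9%, 45.3% and 57.3%. Fibroblast-only regions were ahead of iPSC-only regions at day 8 under both scalings, whereas at day 12 they were ahead by 43.4% to 40.1% under the size factors and behind by 25.5% to 68.1% under equal totals. The day 8 order was not stable either. It turned with size factors from strong regions, at 24.2% of fibroblast-only against 42.7% of iPSC-only regions. With a cutoff of 20 it turned too, at 29.1% against 34.2%, while the other alternatives kept it. Open in absolute terms with equal totals were 37.2%, 49.1%, 46.6% and 43.1% of fibroblast-only and 43.0%, 44.6%, 45.5% and 74.4% of iPSC-only regions, where 48.2%, 50.6%, 48.0% and 51.9% of all autosomal regions were. Under both, the iPSC-only share of iPSC-like regions was highest at day 12, and the fibroblast-only share was lower at days 9 and 10 than at day 8.

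**Figure D4:**
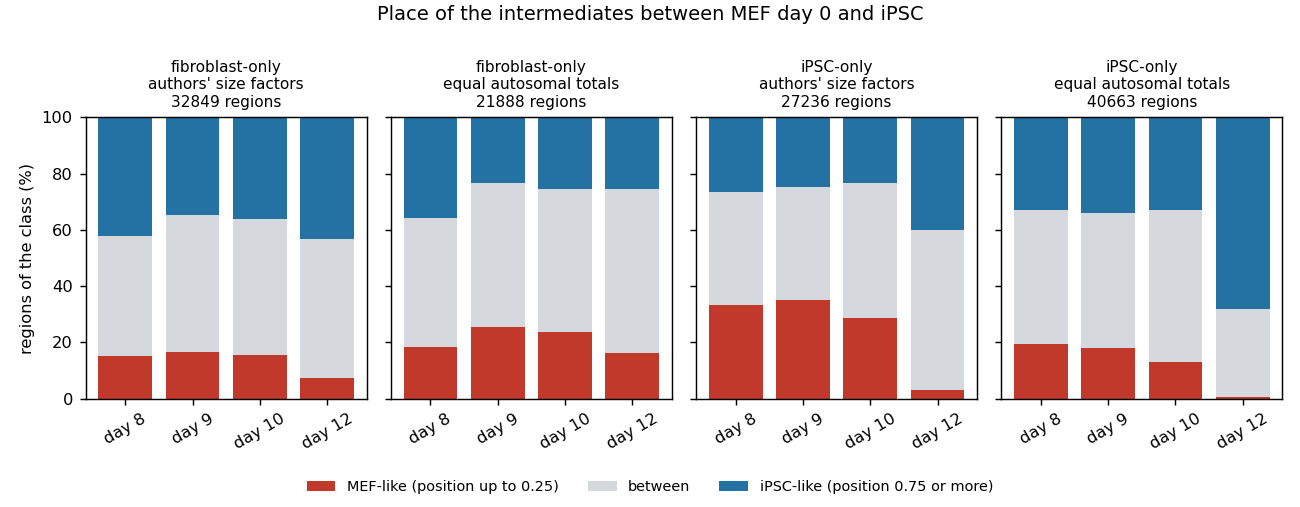
Share of fibroblast-only and iPSC-only regions (y axis, percent) that were MEF-like, between or iPSC-like at days 8, 9, 10 and 12 (x axis), under each scaling; the number of regions stands above each panel. iPSC-like regions rise at day 12 in the iPSC-only class, to 40.1% or 68.1% depending on the scaling.

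Courses over the 4 intermediates differed between regions of 1 class. Among fibroblast-only regions 7773 (23.7%) were iPSC-like at all 4 days, 2218 (6.75%) first at day 12 and 12362 (37.6%) at none of the days without being MEF-like throughout. Over all autosomal regions these shares were 35.9%, 8.17% and 22.1%, and 17.5% were MEF-like at all 4 days. A further 4236 (12.9%) had been iPSC-like at day 8, 9 or 10 but were not at day 12, a course whose share over all autosomal regions was not taken. A small group of 1997 regions (6.08%) was MEF-like at all 4 days. Its share of reads was 0.557% in MEF day 0, 2.01%, 2.21%, 2.10% and 1.22% in the intermediates of days 8, 9, 10 and 12, and 0.109% in iPSC. This group was chosen by its levels in the same intermediates, so its high shares there follow in part from the choice. They also depend on the scaling. Under the size factors the median log2 value of the group was 6.72 both in MEF day 0 and at day 12. Of the fibroblast-only regions that were iPSC-like at day 8, 74.5% were so at day 12, and these were 72.1% of those iPSC-like at day 12. With equal totals the groups at all 4 days, first at day 12 and MEF-like throughout held 2788 (12.7%), 840 (3.84%) and 2451 (11.2%) regions, where 35.5%, 13.4% and 15.0% of all autosomal regions took these courses. The share at all 4 days was thus below that of all regions under both scalings, with the limit of that background given above.

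Among iPSC-only regions 4786 (17.6%) were iPSC-like at all 4 days, 4685 (17.2%) first at day 12 and 13811 (50.7%) at none of the days. Another 552 (2.03%) were MEF-like throughout. Against the shares of all regions given above, fewer were iPSC-like at all 4 days and more first at day 12 or at none. The early group held 0.126% of the reads in MEF day 0, 5.02%, 4.73%, 4.25% and 3.45% in the intermediates of days 8, 9, 10 and 12, and 2.98% in iPSC. The highest share was at day 8, but the group was chosen for its high positions at these days. The group first iPSC-like at day 12 held 0.0962%, 0.662%, 0.730%, 0.838%, 2.14% and 2.87% in the same order. The largest group, at none of the days, held 0.408% at the start, 4.05% at day 12 and 8.99% in iPSC. Of the regions iPSC-like at day 8, 77.0% were so at day 12, but these were only 51.2% of those iPSC-like at day 12. With equal totals 10594 regions (26.1%) were iPSC-like at all 4 days, 13182 (32.4%) first at day 12, 11324 (27.8%) at none, against 18.3% of all autosomal regions, and 85 (0.209%) MEF-like throughout.

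Regions named by their course show the same contrasts in reads. The fibroblast-only region in row 209844 on chromosome 9 was early, with 2319 reads in MEF day 0, 48, 58, 66 and 85 in the intermediates of days 8, 9, 10 and 12, and 35 in iPSC. Row 127915 on chromosome 2 had 2221, 46, 80, 74, 55 and 18. Row 212121 on chromosome 9, with 1897, 218, 187, 226, 102 and 22 reads, and row 74486, given above, passed a position of 0.75 first at day 12, although both had lost most of their reads by day 8. Under equal totals neither passed it at day 12, with positions of 0.67 and 0.71. In contrast, row 83103 on chromosome 16 had more reads in each intermediate than in the fibroblasts, with 798 in MEF day 0, 1986, 2368, 2599 and 1236 in the intermediates of days 8, 9, 10 and 12, and 36 in iPSC. In normalised counts this was 1602, 1797, 1690, 2053, 1113 and 45.1. Row 31957 on chromosome 11 had 690, 614, 1016, 1159, 587 and 21 reads. Both were still far above the cutoff at day 12 and below it in iPSC.

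On the iPSC side the regions of highest iPSC level among those iPSC-like at all 4 days were those in rows 181461 and 165212, given above. First iPSC-like at day 12 were the region in row 65231 on chromosome 14, with 23 reads in MEF day 0, 244, 311, 458 and 851 in the intermediates of days 8, 9, 10 and 12, and 1273 in iPSC, and the region in row 61879, also on chromosome 14, with 23, 618, 799, 654, 812 and 1156. The latter was a matter of the threshold, since its position was 0.72 at day 8 and 0.80 at day 12, and with equal totals it was iPSC-like from day 8. MEF-like at all 4 days were row 104226 on chromosome 18, with 21, 23, 15, 32, 78 and 474 reads and above the cutoff at day 12, and row 146399 on chromosome 4, still below it, with 13, 31, 22, 23, 39 and 436. Under equal totals both had left the MEF-like range at day 12, with positions of 0.42 and 0.32.

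**Figure D5:**
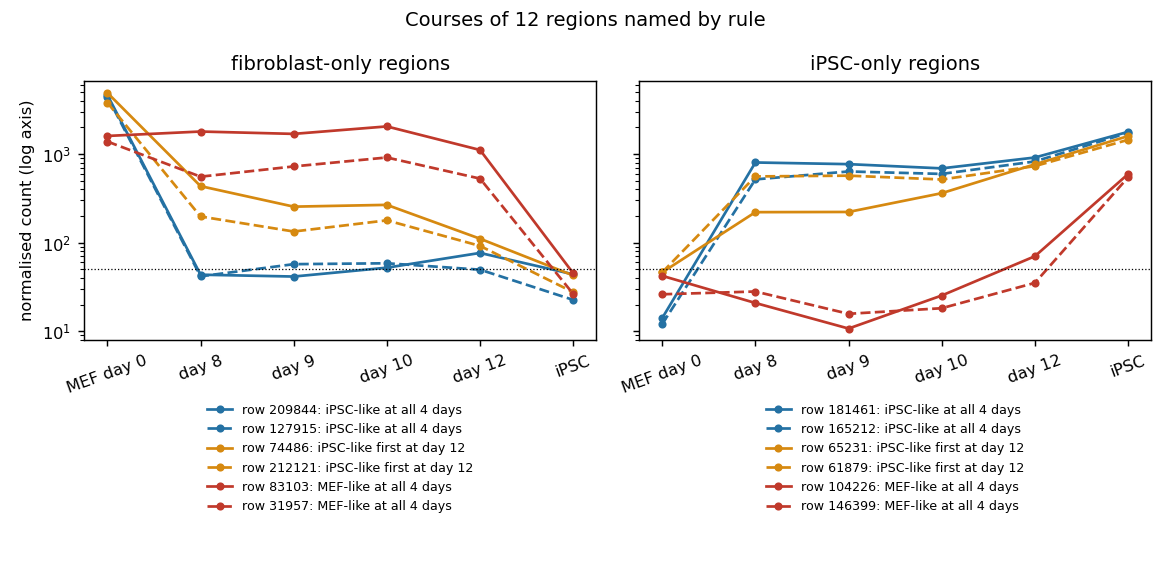
Normalised counts (y axis, log axis) of 12 regions named by rule over the 6 libraries (x axis), for fibroblast-only (left) and iPSC-only regions (right); each line is 1 region, colours give its course, and the dotted line is the cutoff of 50. The region in row 83103 is still at 1113 normalised counts at day 12 and falls to 45.1 in iPSC, while the region in row 209844 is at 43.4 by day 8.

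The share of iPSC-like regions was also taken by level. Fibroblast-only regions of 50 to 100 normalised counts were iPSC-like at day 8 in 22.7% of cases, and the share rose over the bins to 37.2%, 47.1%, 51.0% and 55.8% at 800 or more. Under equal totals it rose over the upper 4 bins from 33.2% to 49.1%. Stronger fibroblast-only regions were thus more often iPSC-like at day 8 under both scalings. Their bins were set by the MEF day 0 count, which is also the start of the position. A high value there moves the position towards iPSC, so the rise can follow in part from the construction. Shares of all autosomal regions by bin were not taken. In iPSC-only regions the share at day 8 was 30.3%, 24.4%, 23.0%, 26.2% and 36.6% over the same bins, with no single direction. At day 12 it was 46.0%, 36.1%, 34.0%, 41.7% and 58.1%, and 73.0%, 63.0%, 64.3%, 72.6% and 87.2% with equal totals. The iPSC-only share was thus lower in the middle bins than in the weakest and strongest at both days under the size factors, and at day 12 with equal totals. With quantile normalisation the day 12 share had no such dip. It then rose from the weakest to the strongest bin, at 36.1%, 38.1%, 45.0%, 66.3% and 88.8%.

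Being shared between both ends did not mean that a region stayed at that level on the way. Of the 28897 shared regions 13186 (45.6%), 11631 (40.2%), 13502 (46.7%) and 20787 (71.9%) were within 2-fold of the mean of their MEF and iPSC log2 values on days 8, 9, 10 and 12. Over all autosomal regions 38.9%, 38.8%, 44.0% and 59.2% were. The other shared regions were mostly lower, with 47.8% lower and 6.59% higher at day 8, and the median deviation was -0.95, -1.08, -0.96 and -0.68. In all 4 intermediates 8946 regions (31.0%) were kept within 2-fold, against 22.0% of all autosomal regions. With equal totals the median deviation was -0.49, -0.47, -0.36 and -0.10, and 17897 of 29617 regions (60.4%) were kept at all 4 days (24.9% of all autosomal regions), with 42.5% in the weakest and 85.0% in the strongest bin. Within 2-fold on single days were then 67.7%, 69.6%, 72.7% and 90.0%, against 43.6%, 44.0%, 47.6% and 51.3% of all autosomal regions. The median shared region was below the mean of both ends in each intermediate under both scalings, but the size of the dip depended on the scaling. With quantile normalisation the median deviation was -0.52, -0.52, -0.35 and -0.02 at the 4 days. Shared regions were chosen for being open in MEF day 0 and iPSC, so lower values in the intermediates follow in part from the choice.

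At all 4 days 3482 shared regions (12.0%) were below the cutoff, and 1489 (5.03%) with equal totals, where 40.8% and 34.2% of all autosomal regions were. The lower share among shared regions follows in part from their choice, since all autosomal regions include those closed at both ends. The strongest of the 3482 shared regions were on chromosome 2. Row 112159 had 237 reads in MEF day 0, 10, 20, 22 and 46 in the intermediates of days 8, 9, 10 and 12, and 193 in iPSC, and the region in row 115668 had 222, 14, 24, 29, 44 and 191. Both were at their lowest at day 8 and rose towards day 12.

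Among the regions open in both cell types but unequal, those higher in MEFs, which held 47.3% of the reads in MEF day 0, held 28.3%, 28.1%, 30.7% and 30.3% in the intermediates and 28.1% in iPSC. With the class set by equal totals their shares in MEF day 0, day 8 and iPSC were 16.4%, 6.11% and 4.07%, so that whether day 8 had reached the iPSC share depended on the scaling. Of the 22663 regions 80.7% were iPSC-like at day 8, against 47.1% of all autosomal regions. A position over 1.25, beyond the iPSC level, was found in 44.8%, a rule whose share over all autosomal regions was not taken. These regions were chosen for a high MEF day 0 value, which is also the start of the position. A high value there moves the position towards iPSC, so both shares can follow in part from the construction. Those higher in iPSCs held 1.39% in MEF day 0, 5.49%, 5.42% and 5.53% at days 8, 9 and 10, 6.91% at day 12 and 9.77% in iPSC, and 22.4% of the 6967 were iPSC-like at day 8. Under equal totals the iPSC-like shares at day 8 were 64.4% of 7985 and 22.4% of 8784 regions.

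Chromosomes differed little. The fibroblast-only share ranged from 13.3% on chromosome 4 to 16.7% on chromosome 3 (SD 1.18 percentage points over the 19 autosomes), the iPSC-only share from 11.5% on chromosome 11 to 13.4% on chromosome 5 (SD 0.616) and the shared part from 10.8% on chromosome 16 to 15.9% on chromosome 11 (SD 1.22). There were 0.707 iPSC-only regions for each fibroblast-only region on chromosome 3, the lowest value, and 1.01 on chromosome 4, 0.996 on chromosome 5 and 0.978 on chromosome 17, the 3 highest. Under equal totals chromosome 3 was again lowest, at 1.52, and chromosomes 4, 5 and 17 highest, at 2.31, 2.35 and 2.24. Chromosome 17 also had the highest share of iPSC-only regions that were iPSC-like at day 8, with 30.8%, against 23.5% on chromosome 12, the lowest. With equal totals chromosome 17 was again highest, with 37.1%, and chromosome 18 lowest, with 30.5%.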

How the data were processed

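ATAC-seq was analysed in 6 libraries, with MEF day 0 and iPSC as the main pair and days 8, 9, 10 and 12 placed between them. The authors ran the ENCODE ATAC-seq pipeline on GRCm38/mm10, built a count matrix with DiffBind (3.8), divided it by DESeq2 (1.21.22) size factors and deposited log2 values with a pseudocount of 1. Values were turned back into reads, since in each library 100% of them were whole multiples of 1 read (tolerance 0.001). The lowest recovered read number was 1, which can stand for 0 or 1.

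Classes used a cutoff of 50 normalised counts and log2 differences of 2 (fibroblast-only, iPSC-only) and 1 (shared). Position, read share and within-library rank described the intermediates. Each result was recomputed with reads divided by equal autosomal totals, which assume equal accessibility in sum, whereas size factors assume that the typical region does not change. Regions were named by rule, as those of highest level or largest difference in each class and, for each course, the 2 of highest level. The members, thresholds and named-region rule were chosen with earlier results of these data known. Intervals were Wilson for shares and exact (Clopper-Pearson) for folds, at 95%. They cover counting error only, and would be up to 1.41 times as wide if both ends of each fragment were counted. Among low read numbers the ratio of even to odd ones was 1.43 in MEF day 0 and 1.14 in iPSC. It was 1.02 to 1.12 in the intermediates. Whether both ends were counted was not tested, so the intervals of the folds may be too narrow. Alternatives were other scalings, cutoffs, fold thresholds, pseudocounts, depths and definitions of iPSC-like. The steps were tested on simulated data. Python 3.11.15, numpy 2.4.6, pandas 2.3.3, scipy 1.17.1 and matplotlib 3.10.9 were used.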

Additional observations from a re-analysis of the deposited data

How the results depend on the processing

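Depth, at a median of 20 reads per autosomal region in MEF day 0 and 33 in iPSC, limits single regions. Its effect on the classes was hardly tested, since thinning kept 79.6% of the MEF day 0 reads and 100% of the iPSC reads. Thinning all libraries to the shallowest one, quantile normalisation (apart from the value below) and leaving out the 17413 regions at 1 read in any library kept all 8 counts within 1.5 times. Of 96 values under alternatives 62 were within 1.5 times and 34 were not. No fibroblast-only or iPSC-only region named here changed the sign of its difference. The named shared regions in rows 161885, 156052, 112159 and 115668, whose direction was not called, went from -0.45, -0.97, -0.97 and -0.89 on the log2 scale to 0.56, 0.04, 0.03 and 0.11 with equal totals. No paired analysis was possible because each group had 1 library.

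Equal autosomal totals gave 21888 fibroblast-only regions, of which 7794 were iPSC-like at day 8 and 5590 at day 12. They gave 13383 iPSC-only regions that were iPSC-like at day 8 and 27711 at day 12, and 17897 shared regions kept within 2-fold. Size factors taken from 20245 strong regions (mean of 500 normalised counts or more) gave 17845 fibroblast-only regions, with 4324 and 4087 iPSC-like at days 8 and 12. They gave 46344 iPSC-only regions, with 19782 and 33149, and 17452 kept shared regions. Quantile normalisation gave 18421 kept shared regions. With a cutoff of 20 there were 45992 shared regions, 13740 of them kept, and 7398 and 7609 fibroblast-only regions iPSC-like at days 8 and 12. With a cutoff of 100 there were 18753 shared regions, 5908 of them kept, and 18096 iPSC-only regions, 4426 and 6427 of them iPSC-like. A log2 difference of 3 left 15926 iPSC-only regions, with 4069 and 6890. With a pseudocount of 10, 6834 iPSC-only regions were iPSC-like at day 12. A position of 0.5 made 22635 and 25143 fibroblast-only and 12038 and 22392 iPSC-only regions iPSC-like at days 8 and 12. A position of 0.9 made 8165 and 7811 fibroblast-only regions iPSC-like, and 4629 iPSC-only regions at day 12. Taking only regions in the same class under both scalings, chosen after seeing the data, left 9777 and 9741 fibroblast-only regions iPSC-like. Beyond the change that each setting makes by its construction, the cause was not tested.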

Other observations

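Some regions closed at both ends were open in between. Their share was smaller than among all autosomal regions, but the latter include regions chosen for no low level. The lower share follows in part from that choice. Of the 77628 regions below 50 normalised counts in MEF day 0 and in iPSC, 26763 (34.5%), 23369 (30.1%), 19469 (25.1%) and 9659 (12.4%) were open at days 8, 9, 10 and 12, and 31429 (40.5%) at one or more of the 4 days. Over all autosomal regions these shares were 46.5%, 45.0%, 43.6%, 43.8% and 59.2%. The 77628 regions held a share of the reads of 2.21% in MEF day 0, 18.7%, 17.8%, 14.9% and 10.6% in the intermediates of days 8, 9, 10 and 12, and 5.53% in iPSC. The low shares at both ends follow from how the regions were chosen. With equal totals 32860 of 91287 such regions (36.0%) were open at day 8 and 19101 (20.9%) at day 12, where 48.2% and 51.9% of all regions were, and 46.5% at one or more of the days, against 65.8%.

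Regions of 1 class tended to stand in neighbouring rows of the table. The order of rows within a chromosome is not described in the sources used here, so the distance between neighbours is unknown. The row after a fibroblast-only region was fibroblast-only in 25.0% of cases, where 15.1% of all autosomal regions were, and iPSC-only in 7.89%, where 12.5% were. The row after an iPSC-only region was iPSC-only in 21.4% and fibroblast-only in 9.48% of cases. The log2 difference between MEF day 0 and iPSC of regions 1 row apart had a Pearson's r of 0.209 over 218212 pairs, which was 0.110 at 5 rows, 0.0850 at 10 rows and 0.00583 at 100 rows. With equal totals the next row was of the same class in 19.1% of fibroblast-only regions (10.0% of all) and in 26.9% of iPSC-only regions (18.6% of all).

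The longest runs of rows in 1 class were picked after their values were seen. On chromosome 13 the rows 57675 to 57689 were 15 iPSC-only regions in succession, also under equal totals. Together they had 33 reads in MEF day 0, 260, 278, 470 and 1192 in the intermediates of days 8, 9, 10 and 12, and 2469 in iPSC. Most of the rise thus came at day 12 and in iPSC. On chromosome 5 the rows 158953 to 158963 were 11 fibroblast-only regions, 7 of them also under equal totals. They had 2237, 350, 673, 626, 512 and 189 reads in the same order, with most of the loss before day 8.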
